A study of Mus musculus with 13 samples.

Results

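Inflammasome and NLR genes encode the cytosolic sensors that detect microbial products and damage, together with the adaptor, protease, pore former and cytokine that act after them. The set described here holds 10 genes of the 55487 listed in each of 2 count tables, namely Nlrp3, Nlrx1, Nlrc3, Nod1, Nod2, Aim2, Pycard, Casp1, Gsdmd and Il1b, chosen by symbol and found in both tables. Their mRNA was measured in mouse embryonic fibroblasts (MEFs), connective tissue cells grown out of dissected embryos, before and after spontaneous immortalization. Poly-A RNA of 13 cultures was sequenced. The wild-type (WT) cultures were 3 primary clones, numbered 3, 4 and 5, each from its own embryo, and the 3 immortalized lines that grew from them. The cultures labelled Prkd3-/-, which lack protein kinase D3 according to the label, were 3 primary clones, numbered 13, 14 and 15, and 4 immortalized lines, numbered 13, 13a, 14 and 15. The primary clones were sampled before immortalization. The paper describes how its WT lines arose, by serial passage to senescence and then growth in more serum until colonies appeared, with no gene or virus added. It describes no Prkd3-/- cultures. A WT line is therefore an outgrowth of colonies and differs from a primary clone in passage as well as in state. The Prkd3-/- lines carry the clone numbers of the primary clones, 13 and 13a the same one, and no source used here states that each grew from the clone of its number. The age of the embryos is not given in the sources used here.

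In the classical inflammasome a sensor such as NLRP3 or AIM2 recruits the adaptor ASC, encoded by Pycard, and ASC gathers caspase-1, encoded by Casp1. Caspase-1 cuts pro-interleukin-1β, the product of Il1b, into its active form and cuts gasdermin D, encoded by Gsdmd, which then opens pores in the plasma membrane. NOD1 and NOD2 sense fragments of bacterial cell wall and signal to NF-κB, while NLRX1, which sits at mitochondria, and NLRC3 are known mainly as dampers of antiviral and inflammatory signalling. Macrophages and other myeloid cells are the best known users of the inflammasome, whereas NOD1 and NLRX1 are found in many tissues.

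The libraries held between 35273408 and 100441756 counts, so that 3 counts, taken here as the limit of detection, corresponded to between 0.0299 and 0.0850 CPM before TMM. The levels below are in CPM, counts scaled to a common library size, after TMM normalization. The gene Prkd3 stood at between 69.7 and 93.6 CPM in the WT libraries and between 33.8 and 61.1 CPM in the libraries labelled Prkd3-/-, lower in all 7 of them, while a deletion of part of the gene would not show in totals for the whole gene. The genotypes were deposited in separate tables, so genotype and table cannot be told apart and levels were compared between states within a genotype. The 12 fibroblast markers summed to between 29820 and 101000 CPM in the 13 libraries, and this sum did not go against the label MEF. Most of it came from Col1a1, Col1a2, Fn1 and Vim, and other markers were low in single lines. Examples are Lum (0.0491 CPM) and Dcn (0.671 CPM) in WT line 3 and Thy1 (4.67 CPM) in Prkd3-/- line 13. Of the 12, 2 (Lum and Fap) were lower in every WT line than in every WT primary clone, near the 17.4% of all tested genes for which this was so. None of the 12 was higher in every line. The 20 macrophage markers summed to 2178, 2166 and 2128 CPM in the WT primary clones against 124.1, 91.05 and 197.9 CPM in lines 3, 4 and 5. Of the 20, 18 were lower in every WT line than in every WT primary clone, against 17.4% of all tested genes. In the libraries labelled Prkd3-/- the same sum was 233.2, 2825 and 543.3 CPM in primary clones 13, 14 and 15 and 29.77, 484.5, 23.69 and 42.59 CPM in lines 13, 13a, 14 and 15, with 10 of the 20 markers at 0 counts in line 13 and none at 0 in the other 12 libraries. Primary clone 14 and line 13a thus stood apart from the rest of their groups. The markers of neutrophils, mast, T and B cells summed to at most 3.584 CPM in any library. In RNA of a whole culture, fewer cells of a type and less RNA per cell cannot be told apart.

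The sequence before the start of 5 members is shown as a description, and no link between these sequences and the levels was tested. The 5 were chosen after the members' values were seen. The RefSeq table of GRCm38.p6 held a window for 9 of the 10 members, all but Gsdmd. The 250 bases before each start were searched on both strands for 8 patterns, 2 of which overlap, since the PU.1 core GAGGAAGT contains the short core GAGGAA. Shown are the 115 bases from 150 to 36 bases before the start for Aim2 and Pycard, which passed the test in WT, for Casp1 and Nlrp3, which were also lower in every WT line, and for Nod1, which was not, each 5′ to 3′ on the strand of its gene. Nlrx1 and Nod2 were also lower in every WT line and are not shown. The window of Nlrx1 held no match to any pattern, and that of Nod2 held only GC boxes. Nlrc3, which overlapped between the states, held no match either. Capitals mark every match to any of the patterns in the sequences shown.
Aim2 (chr1:173420454-173420568, plus strand): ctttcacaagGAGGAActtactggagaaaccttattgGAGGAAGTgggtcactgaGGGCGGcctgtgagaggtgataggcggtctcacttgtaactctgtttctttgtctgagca
Pycard (chr7:127993903-127994017, minus strand): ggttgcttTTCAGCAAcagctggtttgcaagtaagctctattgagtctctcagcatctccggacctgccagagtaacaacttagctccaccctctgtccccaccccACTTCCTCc
Casp1 (chr9:5298367-5298481, plus strand): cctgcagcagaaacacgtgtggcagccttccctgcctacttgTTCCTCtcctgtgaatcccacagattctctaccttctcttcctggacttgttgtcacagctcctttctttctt
Nlrp3 (chr11:59541419-59541533, plus strand): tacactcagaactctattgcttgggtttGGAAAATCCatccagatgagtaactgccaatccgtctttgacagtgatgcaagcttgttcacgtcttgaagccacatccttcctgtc
Nod1 (chr6:54972648-54972762, minus strand): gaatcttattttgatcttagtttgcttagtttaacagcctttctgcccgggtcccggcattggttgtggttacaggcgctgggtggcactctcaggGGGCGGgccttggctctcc

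The core GAGGAAGT, a sequence that the macrophage factor PU.1 can bind, was present in the windows of Aim2, 113 to 106 bases before the start, and of Pycard, 44 to 37 bases before it on the opposite strand. It occurs in 2.441% of the 32851 windows of the table. The short core GAGGAA was present in Aim2, Casp1 and Pycard and in 23.253% of all windows. A match to the NF-κB pattern GGANTTTCC was found in Nlrp3 (1.065% of all windows), a match to the C/EBP pattern TTGCNNAA in Pycard (9.564%), the TATA box TATAAA in Il1b (12.368%) and the GC box GGGCGG in Aim2, Nod1 and Nod2 (32.742%). No member window held the IRF pattern TTCNNTTTC (7.129%) or the AP-1 pattern TGANTCA (6.749%). A match is a string of letters and not a measured site. The RefSeq start of Aim2 used here lies 69725 bases inside the longer Ensembl gene, and the whole Pycard window is also annotated as exon of Gm45205, a gene on the opposite strand.

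The 3 WT lines held far less mRNA of 4 members than the 3 WT primary clones: Pycard, Aim2, Nlrp3 and Casp1 differed by factors of 13.9 to 27.6, and the first 2 of these passed the test. Nlrx1 differed by a factor of 2.23 and Nod2 by a factor of 5.09 without passing, whereas Nod1, Nlrc3 and Gsdmd overlapped between the states and Il1b was at or near 0 counts throughout. The test was edgeR's quasi-likelihood test over 19836 genes, and a gene was called at an adjusted p under 0.01 with a |Log2FC| of at least 1, where Log2FC is the log2 of the ratio of immortalized to primary MEFs. Of the 10 members, 9 passed the filter on low counts, and Il1b did not. Among the sensors, Nlrp3 (ENSMUSG00000032691, chromosome 11, 59541568 to 59566956, plus strand, GRCm38) had 6.12, 5.62 and 5.94 CPM in primary clones 3, 4 and 5 and 0.377, 0.220 and 0.0454 CPM in lines 3, 4 and 5. All 3 lines lay far below the primary clones, and line 5, with 3 counts, was at the limit of detection. The Log2FC was −4.79 with a standard error of 0.67 and an adjusted p of 0.0161, which missed the threshold. DESeq2 gave an adjusted p of 9.77e-17 and a call, and the paper, which used DESeq2, names Nlrp3 among its downregulated genes. In edgeR Nlrp3 passed with line 3 left out (adjusted p = 0.00922) and with line 5 left out (adjusted p = 0.00196). Its adjusted p rose to between 0.0817 and 0.0836 with any primary clone left out and to 0.0396 without line 4. With the clone number as a block it was 0.0831.

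Nlrx1 (ENSMUSG00000032109, chromosome 9, 44252717 to 44268599, minus strand) encodes the NLR of mitochondria. It had 13.3, 13.5 and 12.2 CPM in the WT primary clones and 5.98, 4.51 and 6.95 CPM in lines 3, 4 and 5. Every line was lower than every primary clone, and none was near the limit of detection. The Log2FC was −1.16 with a standard error of 0.18 and an adjusted p of 0.0240, which passed at 0.05 and not at 0.01. For Nlrx1 DESeq2 gave an adjusted p of 3.16e-06 and a call. Of its exon bases, 11.9% are shared with Gm10686 on the opposite strand, and because pairs were counted without regard to strand and could be given to several genes, reads of the shared stretch cannot be told apart. Gm10686 had 2.48, 3.09 and 2.92 CPM in the primary clones and 1.08, 0.964 and 1.50 CPM in the lines.

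Nod1 (ENSMUSG00000038058, chromosome 6, 54923949 to 54972612, minus strand), the sensor of bacterial wall fragments found in many tissues, had 8.62, 8.82 and 8.32 CPM in the WT primary clones. In the lines it had 9.29, 7.03 and 18.9 CPM, so that line 5 held the highest level and line 4 the lowest. The states overlapped, with a Log2FC of 0.46 (standard error 0.38, adjusted p = 0.562), and with line 5 left out it was −0.08. Nod2 (ENSMUSG00000055994, chromosome 8, 88647315 to 88688474, plus strand), a sensor of similar ligands known from myeloid cells, was scarce, with 30, 28 and 22 counts in the primary clones and 1, 3 and 10 counts in lines 3, 4 and 5. These correspond to 0.461, 0.306 and 0.396 CPM against 0.0164, 0.0507 and 0.151 CPM. The lines were all lower than the primary clones, and 2 of the 3 were at or under the limit of detection (Log2FC −2.35, standard error 0.67, adjusted p = 0.131).

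Nlrc3 (ENSMUSG00000049871, chromosome 16, 3945007 to 3976632, minus strand), a damper of STING and T cell signalling, had 5.90, 5.80 and 6.46 CPM in the WT primary clones and 6.45, 4.97 and 3.70 CPM in the lines. Line 3 lay at the level of the primary clones, and lines 4 and 5 lay below it. The Log2FC was −0.27 (standard error 0.22, adjusted p = 0.553), and the states were not distinguished at this spread.

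The DNA sensor Aim2 (ENSMUSG00000037860, chromosome 1, 173350879 to 173466040, plus strand) had 2.03, 1.93 and 1.94 CPM in the WT primary clones, or 132, 177 and 108 counts. In lines 3, 4 and 5 it had 0.0655, 0.101 and 0.151 CPM, or 4, 6 and 10 counts. The primary clones were close to each other and the lines just above the limit of detection. Aim2 fell 18.1-fold (Log2FC −4.18, standard error 0.35, adjusted p = 0.00312). With the clone number as a block the Log2FC was −4.23 and the adjusted p rose to 0.0482, past the threshold, and the call was also lost with any of the 3 primary clones left out (adjusted p between 0.0290 and 0.0305) or with line 4 left out (adjusted p = 0.0107).

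Pycard (ENSMUSG00000030793, chromosome 7, 127989708 to 127993867, minus strand), which encodes the adaptor ASC, had 4.23, 4.15 and 4.23 CPM in the WT primary clones and 0.164, 0.186 and 0.182 CPM in lines 3, 4 and 5, or 10, 11 and 12 counts. The spread within each state was small beside the distance between them, and no member had a smaller standard error relative to its change. The WT primary clones were close in other genes too, such as Lyz2 (743, 735 and 738 CPM) and Il1rl1 (318, 322 and 322 CPM). The Prkd3-/- primary clones were not (Lyz2 67.1, 1030 and 170 CPM, Il1rl1 789, 88.4 and 826 CPM). Small standard errors in WT rest partly on this closeness, whose cause was not tested. Pycard fell 23.4-fold (Log2FC −4.55, standard error 0.19, adjusted p = 0.000356), and it was called with each of the 6 libraries left out in turn. Under the block by clone number the Log2FC was again −4.55 with an adjusted p of 0.0230, which is not a call, and over all genes the blocked fit called 0 against 361 in the unblocked one, although 2784 genes had an unadjusted p under 0.05 there. Of its exon bases, 12.8% are shared with Gm45205 on the opposite strand, which had 2.40, 2.61 and 2.27 CPM in the primary clones and 0.147, 0.118 and 0.167 CPM in the lines, and the reads cannot be told apart.

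Casp1 (ENSMUSG00000025888, chromosome 9, 5298508 to 5307290, plus strand), the protease of the complex, had 4.35, 3.95 and 4.65 CPM in the WT primary clones. It had 0.0983, 0.0507 and 0.757 CPM in lines 3, 4 and 5, which are 6, 3 and 50 counts. All lines were below all primary clones, but line 5 held several times the level of the others. The Log2FC was −3.80 with a standard error of 0.98 and an adjusted p of 0.101, and without line 5 it was −5.82 with an adjusted p of 0.00126. With any primary clone left out the adjusted p was between 0.288 and 0.308. Without line 3 it was 0.0909, and without line 4 it was 0.101.

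Gsdmd (ENSMUSG00000022575, chromosome 15, 75862327 to 75867408, plus strand), which encodes the pore former gasdermin D, had 10.3, 11.1 and 12.0 CPM in the WT primary clones and 12.0, 0.947 and 14.3 CPM in lines 3, 4 and 5. Lines 3 and 5 were at or above the primary clones, and line 4 alone was low. The Log2FC of −0.29 (standard error 0.85, adjusted p = 0.886) turned to 0.25 with line 4 left out. Il1b (ENSMUSG00000027398, chromosome 2, 129364570 to 129371139, minus strand), the cytokine, had 0, 1 and 0 counts in the WT primary clones and 0, 0 and 7 counts in lines 3, 4 and 5. Line 5, at 0.106 CPM, was the single library of the 13 in which Il1b exceeded the limit of 3 counts, and no fold is given.

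**Figure D1:**
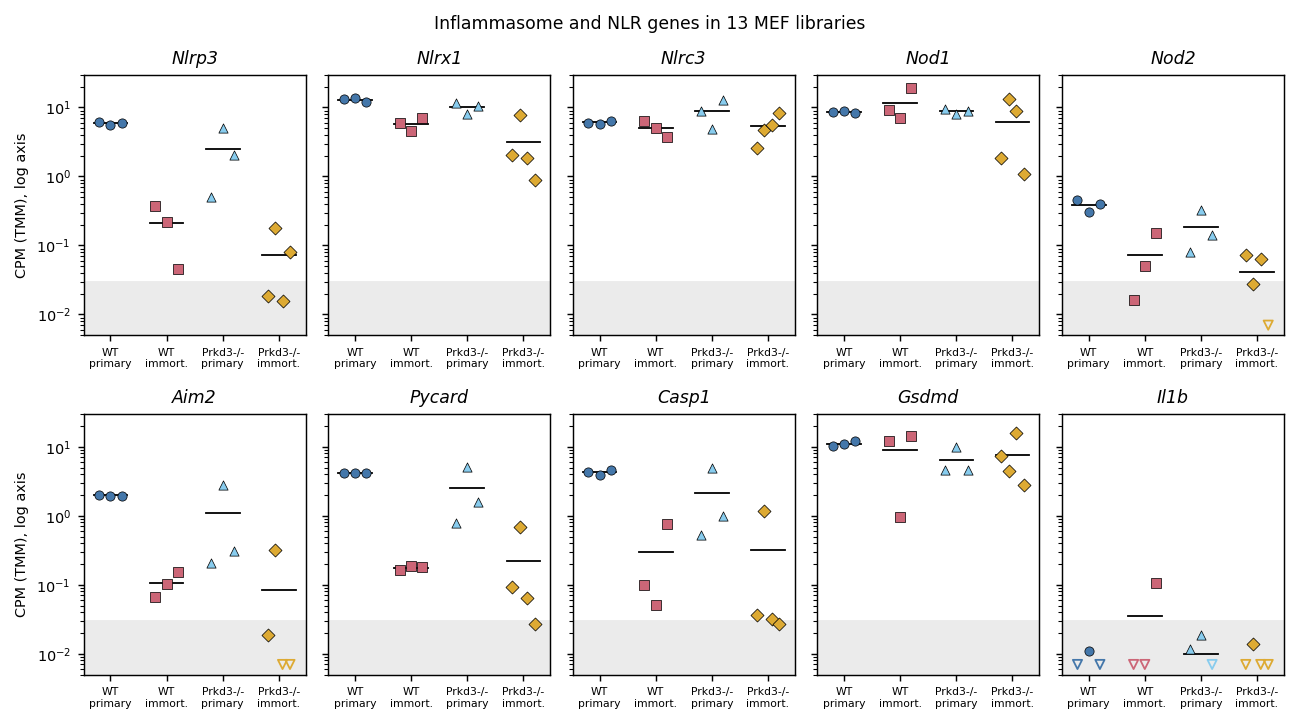
Level of each of the 10 genes in every library, in CPM normalized by TMM on a logarithmic axis, by genotype and state (libraries in order of clone number, 13a after 13, and black lines at the group means, except where the mean lies under the axis). Open triangles are libraries with 0 counts, drawn at the foot of the axis, and the grey band lies under 0.0299 CPM, the lowest level that corresponds to 3 counts in any library. The WT primary clones of Nlrp3, Aim2, Pycard and Casp1 lie together above their lines, while Nod1, Nlrc3 and Gsdmd overlap between the states.

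Of the 9 members tested in WT, 2 were called and both were lower, Aim2 and Pycard, where 1.76% of all tested genes were called lower. At an adjusted p under 0.05 with the same |Log2FC| the count was 4, with Nlrp3 and Nlrx1 added, against 4.16% of all genes, and DESeq2 called 5 lower, with Casp1 added, against 3.68% of the genes it tested. At an unadjusted p under 0.05 in edgeR, 6 members were lower and none was higher, against 11.4% of all genes lower. In 6 members every line lay below every primary clone, which was so for 17.4% of all tested genes. The median Log2FC was −2.35 over the 9 members and 0.04 over all tested genes.

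In the libraries labelled Prkd3-/- the means of Nlrp3, Pycard, Aim2, Casp1 and Nlrx1 were again lower in the lines, but no member passed the test. In the first 4 of these both the primary clones and the lines differed widely among themselves, and in Nlrx1 the lines did. Nlrp3 had 0.496, 5.06 and 2.06 CPM in primary clones 13, 14 and 15 and 0.0184, 0.178, 0.0158 and 0.0802 CPM in lines 13, 13a, 14 and 15. Clone 14 was highest and clone 13 lowest among the primary clones, and yet every line lay below every one of them. The Log2FC was −5.05 with a standard error of 1.07, an unadjusted p of 0.00188 and an adjusted p of 0.364, while DESeq2 gave an adjusted p of 8.53e-05 and a call.

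Pycard had 0.773, 5.16 and 1.58 CPM in primary clones 13, 14 and 15 and 0.0920, 0.696, 0.0634 and 0.0267 CPM in lines 13, 13a, 14 and 15. Line 13a stood apart from the other lines, just under the lowest primary clone. The Log2FC was −3.48 with a standard error of 1.18 and an adjusted p of 0.669. Aim2 had 0.208, 2.76 and 0.311 CPM in the primary clones and 1, 23, 0 and 0 counts in lines 13, 13a, 14 and 15. Here line 13a, at 0.314 CPM, was as high as primary clone 15, so the states overlapped, and the other 3 lines were under the limit of detection (Log2FC −3.66, standard error 1.61, adjusted p = 0.769).

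For Casp1 the primary clones had 0.531, 4.86 and 0.989 CPM and the lines 0.0368, 1.17, 0.0317 and 0.0267 CPM, in the order 13, 13a, 14 and 15. Line 13a, with 86 counts, exceeded 2 of the 3 primary clones, while the other 3 lines, with 2 counts each, were under the limit of detection. The Log2FC was −2.72 with a standard error of 1.49 and an adjusted p of 0.819. For Nlrx1 the primary clones had 11.6, 8.08 and 10.4 CPM and the lines 2.02, 7.74, 1.82 and 0.882 CPM. Every line was below every primary clone, line 13a by little, and clone 14 was the lowest primary clone and not the highest as in Nlrp3, Aim2, Pycard and Casp1 (Log2FC −1.68, standard error 0.70, adjusted p = 0.746).

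Nod1 had 9.36, 8.15 and 9.01 CPM in primary clones 13, 14 and 15 and 1.86, 13.2, 8.75 and 1.07 CPM in lines 13, 13a, 14 and 15. The primary clones were alike, and the lines split into a pair at a low level and a pair at or above that of the primary clones (Log2FC −0.50, standard error 0.80, adjusted p = 0.919). Nlrc3 had 8.85, 4.86 and 12.9 CPM in the primary clones and 2.58, 4.73, 5.48 and 8.42 CPM in the lines, with overlap (Log2FC −0.73, standard error 0.47, adjusted p = 0.842). Gsdmd had 4.54, 10.1 and 4.63 CPM in the primary clones and 7.38, 4.45, 15.8 and 2.77 CPM in the lines. Its highest and its lowest level were both in lines (Log2FC 0.25, standard error 0.62, adjusted p = 0.956). Nod2, with 7, 35 and 5 counts in the primary clones and 4, 2, 4 and 0 counts in the lines, and Il1b, with at most 2 counts in any library, did not pass the filter on low counts.

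Among the 8 members tested in Prkd3-/-, 0 were called by edgeR, as were 0% of all 20298 genes tested, and DESeq2 called 1, Nlrp3, against 0.469% of its genes called lower. At an unadjusted p under 0.05, 3 members were lower (Nlrp3, Pycard and Nlrx1) and none was higher, against 4.34% of all genes lower. In the same 3 members every line lay below every primary clone, as in 5.62% of all tested genes. The median Log2FC of the 8 members was −2.20 and that of all genes 0.07. With primary clone 14 and line 13a left out, an alternative chosen after seeing the data, the Log2FC was −4.94 for Nlrp3, −5.13 for Aim2, −4.25 for Pycard, −4.50 for Casp1 and −2.80 for Nlrx1, with adjusted p between 0.245 and 0.339, and still 0 members were called.

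**Figure D2:**
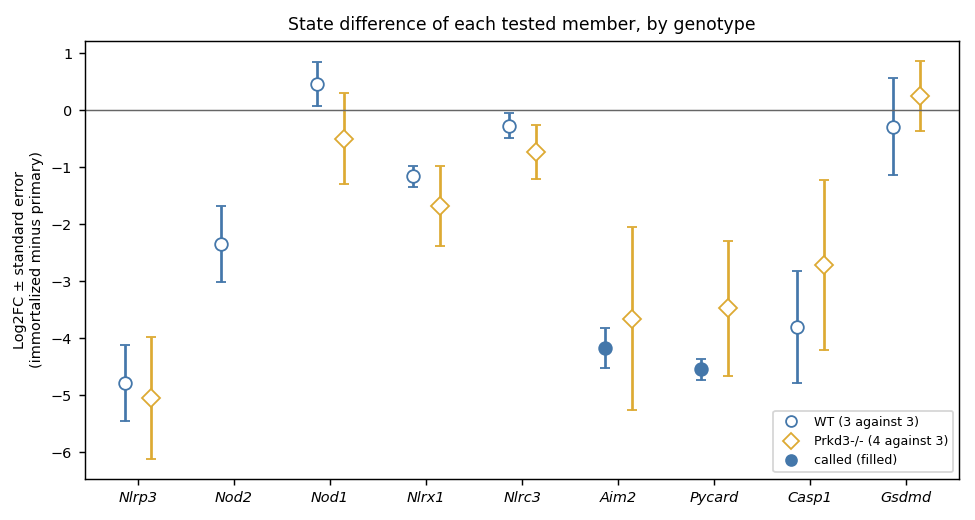
Difference between immortalized and primary MEFs for the members tested, as Log2FC from edgeR with its standard error (bars), in WT (circles, 3 lines against 3 primary clones) and Prkd3-/- (diamonds, 4 lines against 3 primary clones). Filled symbols passed the thresholds, which only Aim2 and Pycard did in WT (Log2FC −4.18 and −4.55). The standard errors of Aim2, Pycard and Casp1 in Prkd3-/- (1.61, 1.18 and 1.49) are larger than in WT (0.35, 0.19 and 0.98).

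Whether the state difference itself differed between the genotypes was tested as an interaction over the 13 libraries. No member passed an adjusted p of 0.05 among the 9 tested, and 0% of the 21197 genes tested did in edgeR. At an unadjusted p under 0.05 the count was 0 members against 3.96% of all genes, and DESeq2 called 0 members against 0.101% of its genes. The difference in Log2FC, Prkd3-/- minus WT, ranged from −0.96 for Nod1 (standard error 1.01) to 1.09 for Casp1 (standard error 1.93), and for Nlrp3 it was −0.27 (standard error 1.19). With such errors a difference of several fold between the genotypes would not have been detectable for Aim2, Pycard or Casp1.

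Levels between genes were compared per length, as CPM per kilobase of exon (RPKM). In the WT primary clones the order was Gsdmd (4.68 ± 0.366, SD, n = 3), Nlrx1 (2.26 ± 0.123), Nod1 (1.69 ± 0.0494), Nlrp3 (1.45 ± 0.0624), Casp1 (1.38 ± 0.111), Pycard (1.11 ± 0.0127), Nlrc3 (0.857 ± 0.0503), Aim2 (0.562 ± 0.0152), Nod2 (0.0773 ± 0.0156) and Il1b (0.00191 ± 0.00330). Nlrp3 and Casp1 overlapped, and every other member lay above the next in all 3 clones. In the WT lines Gsdmd (3.83 ± 3.01), Nod1 (2.31 ± 1.24), Nlrx1 (1.01 ± 0.214) and Nlrc3 (0.713 ± 0.195) led, and all 6 other members had means under 0.1 RPKM, the highest of them Casp1 with 0.0963 ± 0.126. Gsdmd and Nod1 overlapped there, as did Nlrx1 and Nlrc3, but every line held more Nlrc3 than Casp1 per length. The same 4 genes led in the Prkd3-/- lines, where neighbours in the order overlapped.

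The 4 libraries with the largest sum of macrophage markers, the WT primary clones and Prkd3-/- primary clone 14, were also the 4 with most Nlrp3, Aim2, Pycard, Casp1 and Nod2. Per 100 CPM of these markers, Pycard stood at 0.191 to 0.199 CPM in the WT primary clones, 0.0919 to 0.204 in the WT lines, 0.183 to 0.332 in the Prkd3-/- primary clones and 0.0628 to 0.309 in the Prkd3-/- lines. The corresponding range over all 13 libraries was 0.0557 to 0.383 for Casp1, 0.0230 to 0.380 for Nlrp3 and 0 to 0.111 for Aim2. In Pycard, Casp1 and Nlrp3 the ratio spanned fewer fold than the level itself, which in Pycard ran from 0.0267 to 5.16 CPM. Aim2, Nod2 (0 to 0.268) and Il1b (0 to 0.0536) had libraries at 0 counts, so no such span can be given for them. The ratio ran from 0.286 to 7.69 for Nlrx1, 0.289 to 36.9 for Nod1, 0.172 to 23.1 for Nlrc3 and 0.356 to 66.8 for Gsdmd, more fold than in Pycard, Casp1 and Nlrp3. In 3 of the Prkd3-/- lines the sum rested on few markers, so the ratio there does not stand for the marker list as a whole. Csf1r and Mertk made up 15.7 and 7.49 CPM of the 29.77 CPM in line 13 and 8.43 and 7.15 CPM of the 23.69 CPM in line 14, and they were also the most abundant of these markers in line 15. Single markers weighed on the sum in WT as well. Lyz2 made up 743 of the 2178 CPM in WT primary clone 3 and 56.1 of the 124.1 CPM in WT line 3. Adgre1 made up 54.7 of the 197.9 CPM in WT line 5, which held the lowest Nlrp3 ratio and the highest Casp1 ratio. In edgeR's test of WT, 11 of the 20 macrophage markers were called lower and 0 higher, against 1.76% of all genes lower, with a median Log2FC of −4.18. DESeq2 called 17, against 3.68%. In Prkd3-/- edgeR called 0, and 3 were lower at an unadjusted p under 0.05, against 4.34% of all genes. The median there was −3.27, and DESeq2 called 1, against 0.469%. Whether cells that carry these markers account for the members' levels was not tested.

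**Figure D3:**
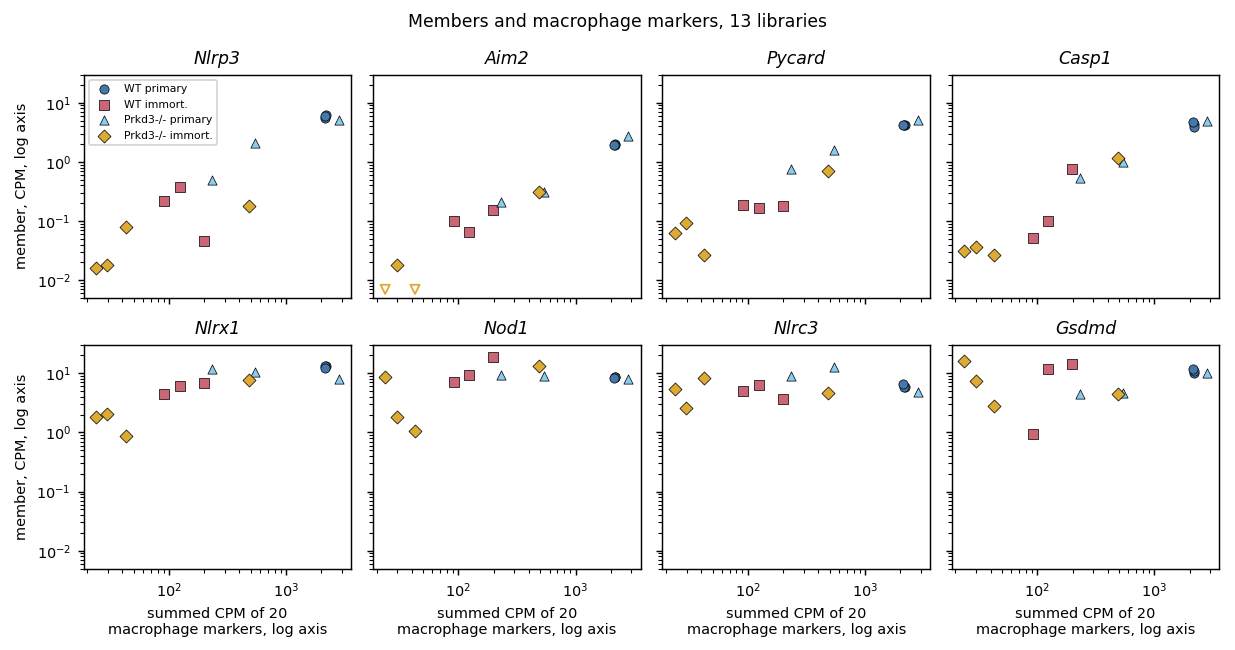
Level of 8 members (vertical, CPM) against the summed CPM of 20 macrophage markers (horizontal) in the 13 libraries, both on logarithmic axes, with a symbol for each genotype and state and open triangles at the foot of the axis for 0 counts. In Nlrp3, Aim2, Pycard and Casp1 the libraries with most marker counts, the WT primary clones and Prkd3-/- primary clone 14 (2825 CPM), also hold most of the member, while Nod1, Nlrc3 and Gsdmd show no such order.

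Markers of other cells that a culture of embryo tissue can hold had a lower sum in the WT lines as well. Of 8 endothelial and epithelial markers 5 were tested in WT and 1 was called lower by edgeR, where 1.76% of all tested genes were. It was the endothelial receptor Tek (Log2FC −4.78, standard error 0.41, adjusted p = 0.00317). At an unadjusted p under 0.05 in edgeR 4 were lower, against 11.4% of all genes, and DESeq2 called 4 lower, against 3.68%. The 8 summed to between 13.04 and 18.46 CPM in the WT primary clones and to between 0.5241 and 2.197 CPM in the lines. In the WT primary clones most of the sum came from Tek (5.32 to 9.09 CPM) and Kdr (4.98 to 6.34 CPM). Pecam1 had 3 to 13 counts there, Krt8 5 to 9 and Epcam 2 to 6, so the sum does not stand for the list as a whole. In Prkd3-/- the 8 summed to 25.61, 6.787 and 31.53 CPM in primary clones 13, 14 and 15 and to 2.631, 17.36, 18.87 and 13.56 CPM in lines 13, 13a, 14 and 15, an order unlike that of the macrophage markers. Of the 12 fibroblast markers 0 were called in either genotype by edgeR or DESeq2, with 0 at an unadjusted p under 0.05 in WT and 1 in Prkd3-/-. Their part in the members' levels was not tested.

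Of the 23 other NLR genes, 9 were tested in WT, 1 was called lower, 0 were called higher and 7 had every line below every primary clone, with a median Log2FC of −2.96. DESeq2 called 6 lower and 0 higher. Over all genes tested in WT, edgeR called 1.76% lower and DESeq2 3.68%. Every line lay below every primary clone in 17.4% of the genes tested by edgeR. The edgeR call in this list was Nlrp1b, a sensor of bacterial proteases, which had 1.89, 2.03 and 1.87 CPM in the primary clones and 0.0491, 0.0507 and 0.121 CPM in lines 3, 4 and 5. It fell 25.3-fold (Log2FC −4.66, standard error 0.41, adjusted p = 0.00348). Its neighbour Nlrp1a had 0.661, 0.556 and 0.432 CPM against 0.0328, 0 and 0.0454 CPM and missed the threshold (adjusted p = 0.0230). Both are close paralogs, so reads may be shared between them.

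Naip2, Naip5 and Naip6, which recognize flagellin and parts of the bacterial secretion needle and hand over to NLRC4, were lower in every WT line than in every primary clone. Naip2 had 4.26, 4.45 and 4.66 CPM in the primary clones and 0.197, 0.152 and 0.954 CPM in lines 3, 4 and 5, and Nlrc4 had 1.14, 1.51 and 1.49 CPM against 0.147, 0.118 and 0.379 CPM. The lines held less of both, line 5 the most among the lines. Neither passed, with Log2FC of −3.33 (adjusted p = 0.0706) and −2.66 (adjusted p = 0.0388), and the Naip genes are also near copies of each other. Nlrc5, an activator of MHC class I genes, overlapped between the states, as did Ciita, the activator of MHC class II genes, which stayed between 0.198 and 0.379 CPM in the WT libraries. Among the NLR genes of egg and early embryo, Nlrp4a, Nlrp4b, Nlrp4e, Nlrp9a, Nlrp9b, Nlrp9c and Nlrp14 had 0 counts in all 13 libraries, under the limit of at most 0.0850 CPM. Others of that class had a few counts, at most 2 for Nlrp5, 6 for Nlrp4f, 12 for Nlrp2 (Prkd3-/- line 15) and 14 for Nlrp4c (Prkd3-/- primary clone 14) in any library. In Prkd3-/- 8 of the 23 were tested and 0 were called by edgeR or DESeq2, with a median Log2FC of −2.01. At an unadjusted p under 0.05 in edgeR 4 were lower, against 4.34% of all genes.

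The other inflammasome genes mostly overlapped between the states. All 3 WT lines were below all primary clones in 3 genes, against 17.4% of all tested genes, and above them in 1. Of these 16 genes 14 were tested in WT and 0 were called by edgeR, with a median Log2FC of 0.20. At an unadjusted p under 0.05 in edgeR, 3 were lower and 0 higher, against 11.4% of all genes lower, and DESeq2 called 1. The DESeq2 call was P2rx7, the ATP-gated channel that sets off NLRP3, with 6.04, 5.90 and 6.77 CPM in the primary clones and 2.62, 0.981 and 2.36 CPM in lines 3, 4 and 5 (edgeR Log2FC −1.65, standard error 0.38, adjusted p = 0.0728). Nek7, the kinase that binds NLRP3, had 134 to 138 CPM in the primary clones and 145 to 162 CPM in the lines (Log2FC 0.20, standard error 0.09, adjusted p = 0.270). Casp4, which encodes the mouse caspase-11 that senses lipopolysaccharide, had 0.953, 1.23 and 0.936 CPM in the primary clones and 3.96, 0.101 and 17.1 CPM in lines 3, 4 and 5 (Log2FC 2.77, standard error 1.43, adjusted p = 0.359). Line 5 was also the WT library with the most Ifi203 (31.0 CPM), Ifi204 (48.8 CPM), Ifi211 (20.4 CPM) and Gbp2 (34.8 CPM), genes known to respond to interferons, and the WT line with the most Casp1, Nod1 and Il1b. The cytokine Il18 overlapped, with 2.17 to 2.81 CPM in the primary clones and 0.947 to 4.62 CPM in the lines. In Prkd3-/- 13 of the 16 were tested and 0 were called by edgeR or DESeq2. At an unadjusted p under 0.05 in edgeR, 1 was lower and 1 higher, against 4.34% of all genes lower.

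Among the 10 receptors and inhibitors of interleukin-1 and interleukin-18, 7 were tested in each genotype and 0 were called by edgeR or DESeq2 in either, with 0 at an unadjusted p under 0.05. The antagonist Il1rn was plentiful although Il1b was at or near 0 counts, with 152, 145 and 97.4 CPM in the WT primary clones, 37.5, 249 and 95.6 CPM in the WT lines and between 2.46 and 364 CPM in the Prkd3-/- lines. The states overlapped, and lines of the same genotype lay far apart. The receptor Il1r1 was also present in every library, between 20.0 and 158 CPM.

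All 20 genes of NOD signalling were tested in WT and edgeR called 1 lower, against 1.76% of all tested genes. DESeq2 also called 1, against 3.68%. The call was Card9, the adaptor of myeloid cells, with a Log2FC of −4.23 (edgeR, standard error 0.35, adjusted p = 0.00290). The other 19, among them the kinase Ripk2 that NOD1 and NOD2 recruit (Log2FC 1.21, standard error 0.43, adjusted p = 0.201) and Rela of NF-κB (Log2FC 0.13, adjusted p = 0.427), were not called. The median of the 20 was 0.12. Of the 9 partners of NLRX1 and NLRC3, such as Mavs (Log2FC −0.01, standard error 0.08) and Sting1 (Log2FC −0.62, standard error 0.29, adjusted p = 0.318), 0 were called by edgeR or DESeq2 in WT. In edgeR 1 was lower at an unadjusted p under 0.05, against 11.4% of all genes. In Prkd3-/- 0 genes of either list were called by edgeR or DESeq2. At an unadjusted p under 0.05 in edgeR there, 1 of each list was lower, against 4.34% of all genes, and 1 NOD signalling gene was higher.

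**Figure D4:**
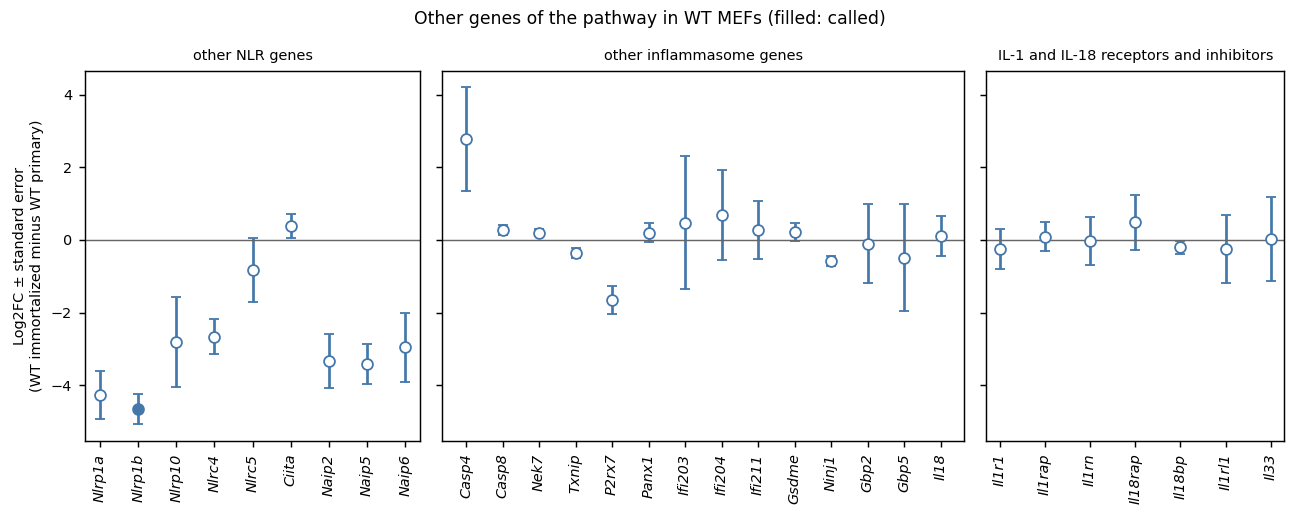
Difference between WT lines and WT primary clones for the tested genes of 3 lists of the pathway, as Log2FC from edgeR with its standard error (bars, 3 against 3 libraries). The filled symbol, Nlrp1b at −4.66, was the single call in these lists. Of the 9 NLR genes, 7 lie between −4.66 and −2.66, while the other inflammasome genes and the receptors lie around 0 with wide errors in Casp4, Ifi203 and Gbp5.

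The genes whose log2 CPM followed a member most closely over the 13 libraries are given as a description, since the libraries share culture, depth and marker content. For Pycard these were Ptpn18 (Pearson r = 0.992), Tlr7 (0.992) and Cyth4 (0.988), for Casp1 they were Tlr9 (0.989), Ebi3 (0.988) and Ccl4 (0.981), and for Aim2 they were Tlr7 (0.988) and the 2 gene IDs of the pseudogene Gm9025 (0.988 each), whose models overlap. Tlr7 and Tlr9 are endosomal receptors for nucleic acids. For Nlrp3 they were Mir6983 (0.990), a miRNA gene that lies within the macrophage marker Csf1r and can hold its reads, Tifab (0.972) and Samsn1 (0.971). The nearest genes to Nod2 were Cd40 (0.954), Slc39a4 (0.940) and Fgd2 (0.939).

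Nlrx1, Nod1, Gsdmd and Nlrc3 had other neighbours. Nlrx1 was nearest to Gm10686 (0.984), with which it shares exons, Iqcc (0.975) and Pef1 (0.950), Nod1 to Cdc42ep5 (0.962), Plcxd2 (0.958) and Pgm1 (0.949), and Gsdmd to Rab14 (0.900), Gm15531 (0.882) and Stradb (0.854). The closest to Nlrc3, Mir1966, reached 0.849. Between members, r in the 6 pairs of Nlrp3, Aim2, Pycard and Casp1 ran from 0.842 (Nlrp3 and Casp1) to 0.975 (Aim2 and Pycard). Pairs of these genes with others reached similar values, 0.873 for Nlrx1 and Aim2, 0.867 for Nlrx1 and Pycard, 0.855 for Nlrx1 and Casp1 and 0.830 for Nod2 and Pycard, so the 4 were not set apart by r. The pairs of Gsdmd with the other members ran from −0.210 to 0.466, those of Nlrc3 from −0.210 to 0.411 and those of Nod1 from 0.036 to 0.739.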

How the data were processed

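Raw gene counts of 13 poly-A libraries were deposited in 2 tables. Per the labels and the paper's methods, read pairs were mapped to mm10 with STAR 2.7.10a, processed with SAMtools 1.18 and counted with featureCounts (Subread 2.0.6) against Ensembl release 102. The header of the WT table shows counting without strand and with a pair given to every gene it overlaps, and the options behind the Prkd3-/- table are not given in the sources used here. No normalization had been applied by the authors to the deposited counts, and the matching of exons used GENCODE M21 of the same build.

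Each genotype was fitted with edgeR 4.0.16 in R 4.3.3 (quasi-likelihood test, robust, TMM, filterByExpr) with Benjamini-Hochberg adjustment over all genes tested. Genes were called at an adjusted p under 0.01 with |Log2FC| ≥ 1, the thresholds that the paper applied to DESeq2. The difference between genotypes was an interaction over 13 libraries at an adjusted p under 0.05. Standard errors are the Log2FC divided by the square root of F. The fits were tested on simulated data with equal spread in all groups and changes only in genes with more counts. That test does not cover lines that differ widely or members with few counts. Alternatives were library size alone, the size factors of DESeq2 1.42.0, DESeq2 itself, other filters, limma 3.58.1 with a weight per state, a joint fit, lines 13 and 13a summed, an adjusted p under 0.05 (or 0.01), each library left out and the clone number as a replicate block. For WT the pairing comes from the study, where a number marks 1 embryo before and after immortalization, although deviations from the group means correlated only between −0.0393 and 0.0186 in the pairs. For Prkd3-/- the libraries share a number in the labels. The 3 clones per genotype are separate cultures, and intervals of counts cover counting error only.

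The members and lists were chosen with earlier results of these data known. The genes named are the members, Prkd3, the genes of the lists and, for each member, the 3 genes with the largest Pearson r of log2 CPM (prior count 1).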

Additional observations from a re-analysis of the deposited data

Results flagged for a closer look

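In the group of 4 immortalized Prkd3-/- lines, line 13a lay farther above the other lines than Dixon's 95% limit for 4 samples allows for 5 members and for the marker sum. Line 13a had 7.743 CPM of Nlrx1, 0.3141 CPM of Aim2, 0.6965 CPM of Pycard and 1.174 CPM of Casp1, where the other 3 lines reached at most 2.024, 0.0184, 0.09199 and 0.0368 CPM. For Il1b the value was 0.01366 CPM, which is 1 count against 0 in the other lines and under the limit of detection. With the other lines at 0, any single count would exceed Dixon's limit, so Il1b carries no information here. The sum of the 20 macrophage markers in line 13a was 484.5 CPM, with at most 42.59 CPM in the others. The remaining 5 members, Nlrp3, Nlrc3, Nod1, Nod2 and Gsdmd, were within the limit. Chance alone exceeds it in about 1 of 20 groups, 11 items were examined, and they are not independent since 1 library was the highest in each of the 6.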

How the results depend on the processing

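In WT the count of members called was 2, and it was 4 at an adjusted p under 0.05, 5 with DESeq2, 1 with at least 10 counts in every library (5 members left), 1 with limma and 0 in the joint fit of 13 libraries, with a range of 1 to 4 over the libraries left out in turn. With the clone number as a replicate block it was 0, and the pairing changed no call in Prkd3-/- or between genotypes. In Prkd3-/- deviations of same-numbered libraries correlated between −0.283 (13a with 13) and 0.141, line 13a correlated at 0.336 with primary clone 14 and line 13 at 0.305 with clone 15, and only line 15 correlated best with its own number, so the block may not pair these libraries. In these settings the genes called over the whole table were 361, 868, 1361, 157, 198, 0 and, with the block, 0. In Prkd3-/- the count was 0, and 1 with DESeq2 (Nlrp3). Between genotypes it was 0 in every setting tried. Of 131 values of single members in WT, 112 kept their direction and their side of the threshold, 9 lost the call, 8 gained it and 2 changed sign. In Prkd3-/- 137 of 140 were kept and 2 changed sign, and between genotypes 182 of 202 were kept and 20 changed sign. Over the libraries left out, the Log2FC in WT ran from −0.08 to 0.72 for Nod1 and from −0.79 to 0.25 for Gsdmd, and in Prkd3-/- from −0.38 to 0.73 for Gsdmd, which limma put at −0.04. The difference between genotypes ran from −1.12 to 0.76 for Nlrp3, −0.31 to 1.27 for Nod2, −3.08 to 2.63 for Aim2, −0.79 to 2.18 for Pycard, −2.18 to 3.09 for Casp1 and −0.07 to 1.03 for Gsdmd, so its sign was not settled for these 6. For Nlrp3 it was 0.25 with limma and 0.50 with the block, for Aim2 −0.51 with limma, −0.08 with the block and −0.95 without primary clone 14 and line 13a, and for Casp1 −0.67 without these libraries. The cause of these changes was not tested. Library size alone moved the median Log2FC of all WT genes from 0.04 to −0.10 and that of the difference between genotypes from 0.04 to 0.18, and no member changed sign under it. Depth limits Nod2, Aim2, Casp1 and Nlrp3 in the lines, where many libraries held fewer than 10 counts, Pycard in Prkd3-/- lines 13, 14 and 15 (5, 4 and 2 counts), and Il1b in all libraries.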
